A study of Homo sapiens with 6 samples.

Results

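The genes described here encode the machinery of mitosis: the cyclins and kinases that start it, the checkpoint and kinetochore proteins that hold chromosomes to the spindle, the kinesins and assembly factors that build and move it, and the proteins that divide the cell. They were picked out of an expression table by a list of gene names; the rule uses no measured value, but the list was drawn up with earlier results of these data known. Of 46 genes named, 44 were in the table of 12829 genes, and NUSAP1 and PRC1 are not analysed here. All 44 passed the filter on low values and were among the 11214 genes tested. RNA was sequenced from HaCaT cells, an immortal and aneuploid line of human keratinocytes, in 3 libraries labelled as normal control with the WT genotype and 3 libraries labelled shIQGAP2, in which a short hairpin RNA lowers IQGAP2, a scaffold protein that binds calmodulin and actin. Both groups were grown in the same serum-containing medium. The labels do not say whether the control cells carried a hairpin, how many hairpins were used or whether the cells were a clone or a pool. The series title names cell proliferation, so the comparison of knockdown with control addresses whether transcripts of dividing cells differ.

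As background, most of these transcripts are made in G2 and mitosis and are removed soon after. CDK1 bound to a B-type cyclin drives entry into mitosis, and PLK1 and the Aurora kinases act beside it. The spindle checkpoint holds the anaphase-promoting complex, APC/C, inactive until kinetochores are attached, after which CDC20 directs APC/C to destroy cyclin B and securin. In resting cells the DREAM complex represses the promoters of these genes, and in cycling cells MYBL2 and FOXM1, both joined to the MuvB core that DREAM also contains, activate them. In the epidermis division is confined to the basal layer and ends as keratinocytes differentiate, so this gene group is widely used to read proliferation. In RNA from a whole culture, fewer cells in mitosis and less RNA per mitotic cell cannot be told apart.

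What the members share beyond their function was visible in their promoters. MuvB complexes bind the cell cycle homology region, CHR, whose letters are TTTGAA or, less often, TTCGAA, and the factor NF-Y binds CCAAT boxes a short way upstream. Windows from 250 bases before to 50 bases after the start, from RefSeq on GRCh38.p14, were found for 38 of the 46 genes, 36 of them among those tested. With both strands searched, so that TTCAAA and ATTGG also count, CHR letters were in at least 1 window of 31 of 38 members, 81.6%, against 19.5% of all 27305 genes with a window and 15.2% of 9111 genes tested. CCAAT was in a window of 30 members, 78.9%, against 39.7% of all genes, and both motifs stood in the same window for 26 members, 68.4%, against 7.85%. A gene was called higher or lower in the knockdown at an adjusted p under 0.05 in limma over all genes tested. A match is a description and not a proven binding site. The windows below are those of HMMR, ANLN and KIF11, which were higher in the knockdown, CCNB2, KIF22 and CKS2, which were lower, PLK1, which did not pass the test, and AURKB, which fell most. CHR letters stand in front of genes that moved in opposite directions, as TTCGAA in KIF22 and not at all in AURKB. These windows were picked as examples. Each is the 150 bases before the first start listed, read 5′ to 3′ on the strand of the gene, on GRCh38.p14, with CHR and CCAAT letters of either strand in capitals; in HMMR a CCAAT box overlaps its reverse complement and the CHR copies adjoin.
HMMR (chr5:163460482-163460631, plus strand): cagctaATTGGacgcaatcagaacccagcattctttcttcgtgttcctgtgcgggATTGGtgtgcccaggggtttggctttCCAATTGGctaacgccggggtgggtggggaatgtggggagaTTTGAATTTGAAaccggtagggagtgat
ANLN (chr7:36389712-36389861, plus strand): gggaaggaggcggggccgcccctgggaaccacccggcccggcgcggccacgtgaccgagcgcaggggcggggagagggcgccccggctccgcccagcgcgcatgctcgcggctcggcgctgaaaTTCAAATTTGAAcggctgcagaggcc
KIF11 (chr10:92592980-92593129, plus strand): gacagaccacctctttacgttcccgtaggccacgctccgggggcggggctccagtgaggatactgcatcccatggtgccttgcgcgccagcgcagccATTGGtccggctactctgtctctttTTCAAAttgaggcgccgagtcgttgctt
CCNB2 (chr15:59104996-59105145, plus strand): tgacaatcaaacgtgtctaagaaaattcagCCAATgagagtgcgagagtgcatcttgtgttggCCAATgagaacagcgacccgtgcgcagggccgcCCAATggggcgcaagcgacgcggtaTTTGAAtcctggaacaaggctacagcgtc
KIF22 (chr16:29790601-29790750, plus strand): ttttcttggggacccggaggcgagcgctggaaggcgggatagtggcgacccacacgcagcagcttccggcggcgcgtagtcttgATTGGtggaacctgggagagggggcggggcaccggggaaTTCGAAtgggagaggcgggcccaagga
CKS2 (chr9:89311045-89311194, plus strand): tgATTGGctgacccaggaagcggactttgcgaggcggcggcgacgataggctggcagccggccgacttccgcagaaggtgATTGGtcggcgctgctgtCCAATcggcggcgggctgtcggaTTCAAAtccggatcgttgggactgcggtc
PLK1 (chr16:23678739-23678888, plus strand): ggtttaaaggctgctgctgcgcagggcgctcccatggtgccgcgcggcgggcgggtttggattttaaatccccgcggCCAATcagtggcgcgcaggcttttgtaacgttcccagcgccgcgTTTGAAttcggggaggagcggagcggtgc
AURKB (chr17:8210226-8210375, minus strand): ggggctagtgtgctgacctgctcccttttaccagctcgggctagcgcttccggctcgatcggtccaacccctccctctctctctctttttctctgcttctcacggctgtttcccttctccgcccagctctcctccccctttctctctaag

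The first CHR base lay 28 and 22 bases before the start in HMMR, 26 and 20 in ANLN, 28 in KIF11, 29 in CCNB2, CKS2 and PLK1, and 27 in KIF22. The AURKB stretch held neither motif in full, but in its longer window CCAAT letters began 153 bases before the start, at the edge of the stretch. CHR letters were in windows of 13 of 16 members that were higher, 5 of 8 that were lower and 11 of 12 that did not pass the test. For TTTGAA alone, on either strand, these were 13 of 16 (81.2%), 3 of 8 (37.5%) and 10 of 12 (83.3%), against 13.4% of genes tested. Whether the letters differ by direction was not tested. No CHR letters were found in any window of 7 members, CCNA2, CCNB1, AURKB, CENPE, KIF2C, KIF20A and MYBL2, which says only that these letters are not in these windows. AURKB, MYBL2 and KIF20A were the members with the largest falls, while CCNA2, CCNB1 and CENPE were higher.

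**Figure D1:**
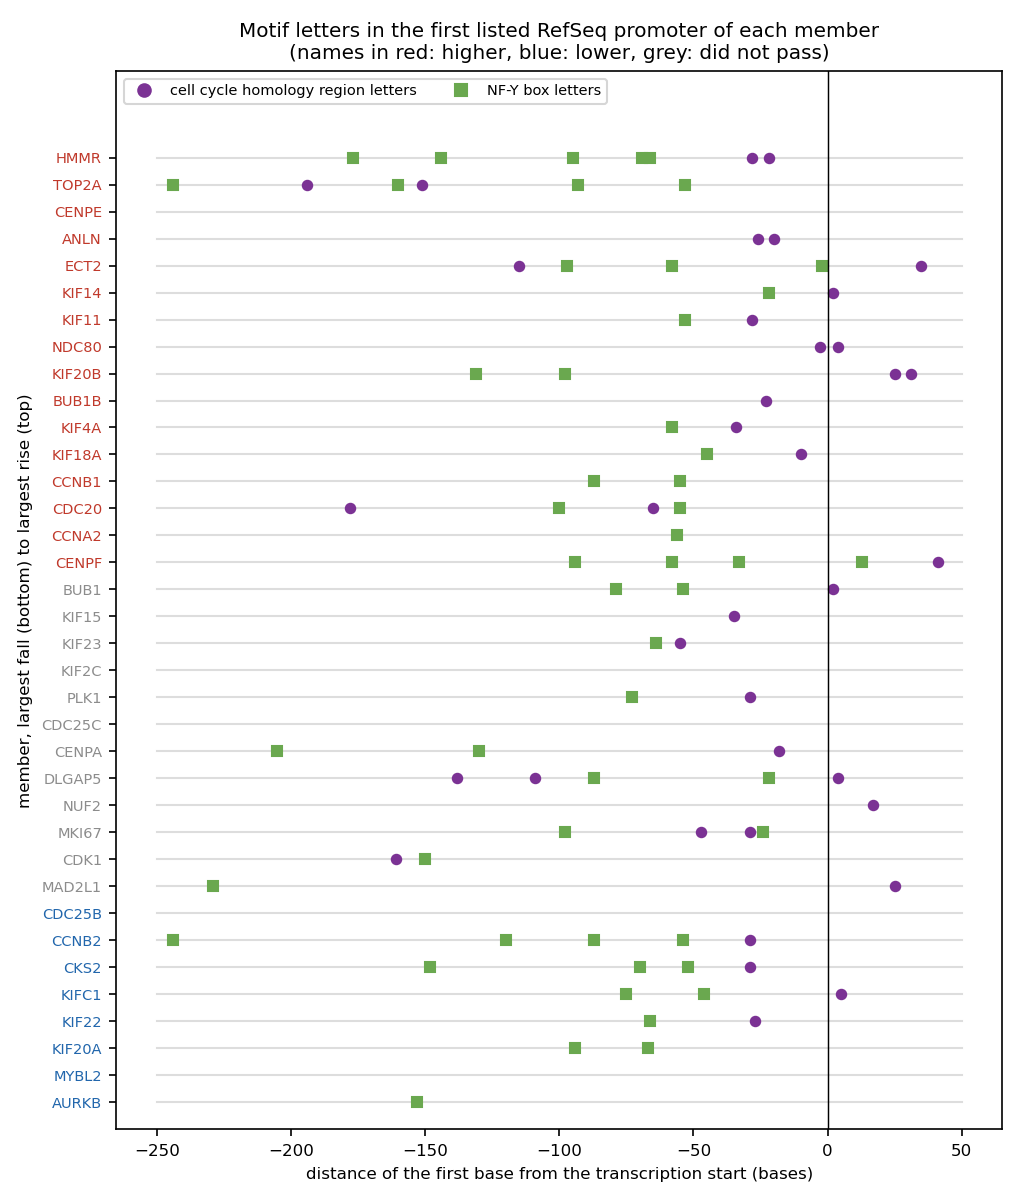
Distance in bases from the transcription start (x axis) of CHR letters (circles) and NF-Y box letters (squares), on either strand, in the first listed RefSeq window of 36 members tested, ordered by log2 change from the largest fall at the bottom to the largest rise at the top. CHR letters appear in front of members that were higher, lower and not past the test. They are missing for AURKB and MYBL2 at the bottom, but also for CENPE near the top and for CCNA2 and CCNB1, which rose. CDC25B and CDC25C hold them only in windows not drawn.

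The knockdown was present in the libraries that carry its label. IQGAP2 (ENSG00000145703) was at 0.200, 0.198 and 0.190 FPKM in the control libraries and at 0.0196, 0.0328 and 0.0182 FPKM in the knockdown libraries, in replicate order, where FPKM is the number of fragments scaled to gene length and library depth. These values rest on 24, 22 and 21 reads against 2, 4 and 2. Every group has 3 libraries, values are listed in replicate order throughout, and ± gives the SD. IQGAP2 lies below the filter on low values and was added to the fit. The knockdown mean was 12.0% of the control mean (log2 change -0.22, SE 0.072, adjusted p = 0.0217 in limma), and an exact permutation of the labels, two-sided, returned p = 0.1, the lowest value possible with 3 libraries against 3. Leaving out control replicate 1, 2 or 3 or knockdown replicate 3 ended the limma call, with adjusted p between 0.0519 and 0.0556. Keratinocyte markers, KRT5 and KRT14 among them, were all present, 14 of 14, with a summed level of 7600 to 7699 FPKM in the controls and 7837 to 8565 FPKM after knockdown. The limma fit called 9 of the 14 higher and 0 lower (median log2 change 0.34), against 29.5% and 27.8% of all genes tested. Of 29 markers of fibroblasts, melanocytes, immune and endothelial cells 8 were in the table. The fibroblast list, with 3 of 8 in the table, summed to 3.46 to 3.79 FPKM in the controls and 1.56 to 1.91 FPKM after knockdown, and the part of this in the results below was not tested. Reads behind the FPKM values could be inferred, with some genes possibly too low, and amounted to 12901037 to 15360759 per library. The members held 372 to 9425 reads per gene and library, and counting error weighs most in those with the fewest, such as KIF15, CDC25C and CENPA. Replicates are labelled as biological, but nothing says that they came from separate cultures, so the p-values reflect only how far these 6 libraries scatter, and that scatter may be technical.

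The mitotic genes did not move together. Of 44 members 19 were higher and 8 lower in the knockdown, against 29.5% and 27.8% of all genes tested, and 17 did not pass. AURKB, the kinase of the chromosomal passenger complex, fell most, to 54.5% of its control level, and HMMR, a spindle protein, rose most, to 166.8%. MYBL2 fell, TOP2A, CCNB1 and CENPE rose, and MKI67, CDK1, PLK1 and FOXM1 did not pass. Transcripts used to read proliferation were thus found in each of these classes. Changes are log2 differences, knockdown minus control, of FPKM + 1.

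Of all 11214 genes tested, 57.4% were called in either direction, and of the members 61.4%, which is near that background. By direction, 43.2% of the members were higher against 29.5% of all genes, and 18.2% were lower against 27.8%. The 2 groups were fully separate for 32 members, 72.7%, against 65.1% of all genes. Member changes were small: the median was 0.07 against 0.01 for all genes, the median size without sign was 0.19 against 0.22, no member moved by over 2-fold, and 4 members, 9.09%, moved by over 0.5 in either direction against 15.04% of all genes. Summed over the 44 members, the recovered reads made up 0.683%, 0.686% and 0.681% of all reads in the control libraries and 0.711%, 0.731% and 0.706% in the knockdown libraries. Their share of the summed FPKM was 0.719%, 0.711% and 0.713% in the control libraries and 0.782%, 0.812% and 0.778% in the knockdown libraries. By both measures the share was higher in every knockdown library, while the members' own FPKM sum was 1950 to 1953 in control and 1905 to 1939 in knockdown libraries.

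Several properties of the libraries moved with these counts. The deposited FPKM summed to 271372 to 274709 in control and 234624 to 248082 in knockdown libraries. With each library rescaled to a common sum, under which the median change over all genes was 0.14 in place of 0.01, 25 members were higher and 6 lower, 80.6% of the calls higher against 70.4%. Over all genes that rescaling gave 4864 higher and 1838 lower, against 3313 and 3121. Knockdown replicate 2 was the highest of the 3 knockdown libraries for 24 members and the lowest for 12. Without it, 18 members were higher and 11 lower, and the median change of the members was 0.011 in place of 0.07.

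**Figure D2:**
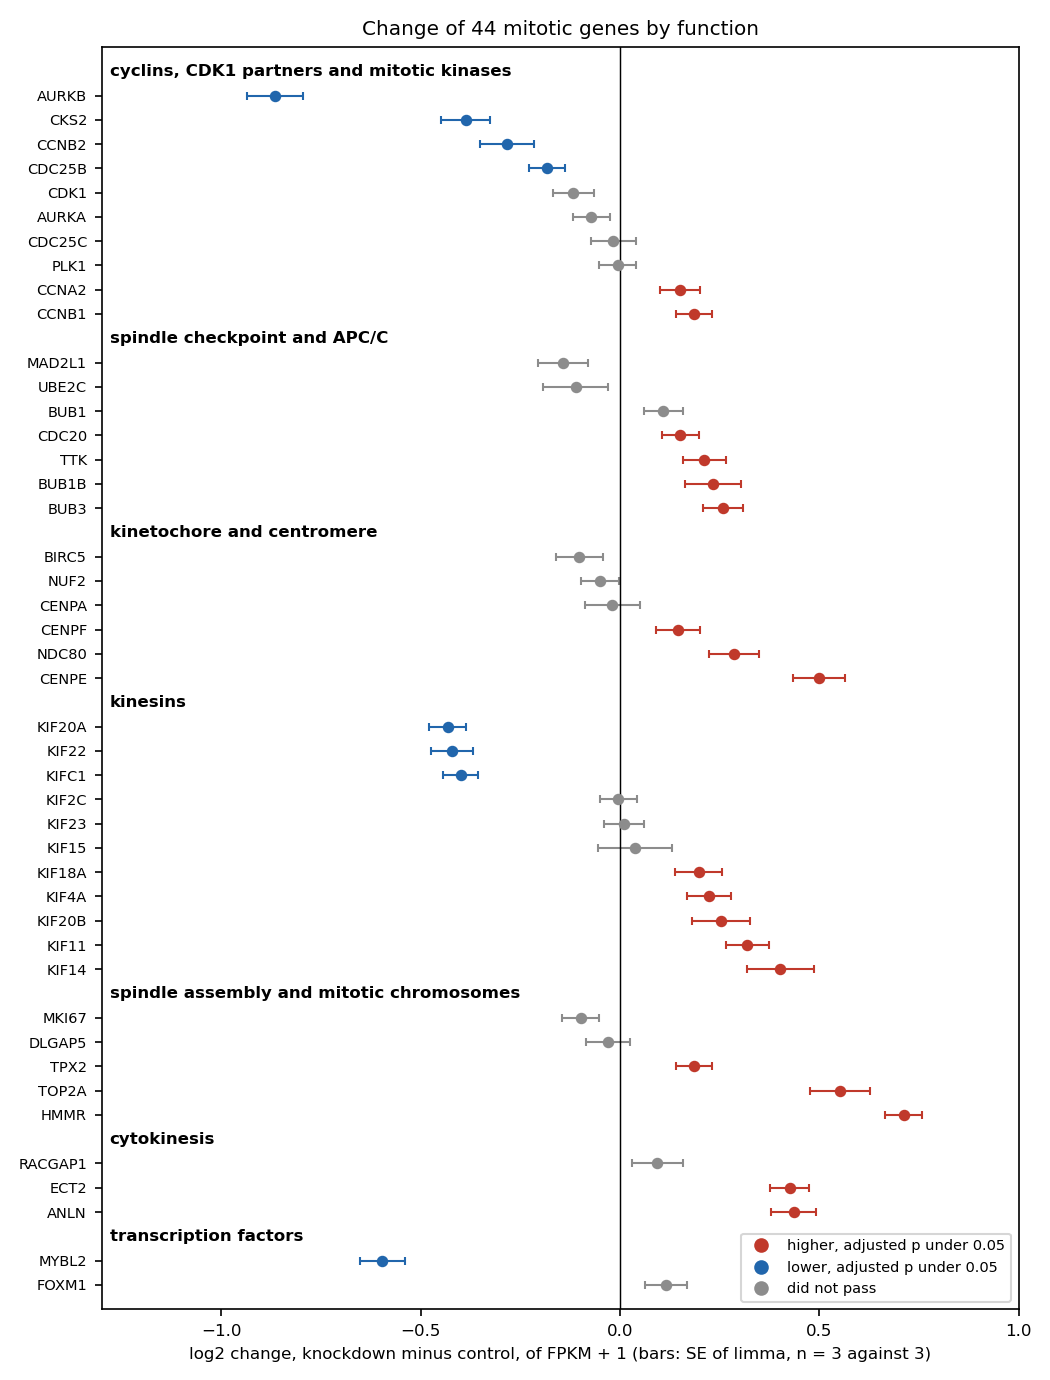
Log2 change of each of the 44 members on the x axis (knockdown minus control, FPKM + 1), with bars for the SE of limma, grouped by function. Red points were higher and blue points lower at an adjusted p under 0.05, 19 and 8 members, and grey points did not pass. AURKB at -0.86 and HMMR at 0.71 lie at the ends.

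Among cyclins, CDK1 partners and mitotic kinases, 2 of 10 members were higher and 4 lower (median -0.09). The counts were 3 and 2 under a common sum (median 0.07) and 2 and 3 with the trend over gene length removed. For this and each function below, the shares of all genes tested were 29.5% higher and 27.8% lower. AURKB (ENSG00000178999, chr17:8204733-8210600 in GENCODE v29 on GRCh38), which corrects wrong attachments at the centromere and acts in cytokinesis, was at 69.9, 67.5 and 68.0 FPKM in the control libraries and at 38.5, 32.8 and 40.5 FPKM in the knockdown libraries. The groups were far apart, with knockdown replicate 2 the lowest (log2 change -0.86, SE 0.070, adjusted p = 7.30e-06). Its relative AURKA, which works at spindle poles with TPX2, was at 51.8, 51.3 and 52.9 FPKM in the controls and 51.1, 50.2 and 47.2 FPKM after knockdown. The AURKA values did not overlap but were close, and the difference did not pass (-0.07, SE 0.046, adjusted p = 0.208). The B-type cyclins went opposite ways. CCNB1, the main mitotic partner of CDK1, rose from 116, 111 and 117 FPKM to 129, 128 and 135 FPKM (0.19, SE 0.045, adjusted p = 0.00533). CCNB2, the Golgi-associated B-type cyclin, fell from 58.5, 58.3 and 60.7 FPKM to 53.3, 43.4 and 49.0 FPKM (-0.28, SE 0.067, adjusted p = 0.00493), with neither gene overlapping between groups, and the CCNB2 call was lost under a common sum (-0.12, adjusted p = 0.0883). CKS2, a small protein that binds CDK1 and helps it find its substrates, fell from 179, 166 and 178 FPKM to 138, 122 and 141 FPKM (-0.39, SE 0.062, adjusted p = 4.77e-04).

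CDC25B, a phosphatase that activates CDK1, fell by 0.18 (adjusted p = 0.00535), a change of -0.017 under a common sum, while its relative CDC25C was at 9.203 ± 0.446 FPKM in the controls and 9.08 ± 0.0216 FPKM after knockdown (-0.017, adjusted p = 0.818). CCNA2, the cyclin of S phase and early mitosis, rose by 0.15 (adjusted p = 0.0274), and the call was lost when any 1 control library was left out (adjusted p 0.0730 to 0.0828). CDK1 itself was at 60.8, 62.3 and 62.9 FPKM in the controls and 55.6, 61.2 and 54.7 FPKM after knockdown. Knockdown replicate 2 lay within the control range and the other knockdown libraries below it (-0.12, SE 0.051, adjusted p = 0.0758). Without knockdown replicate 2 CDK1 passed as lower (-0.17, adjusted p = 0.00179), and under a common sum its change was 0.05. PLK1 was at 22.2, 24.0 and 23.3 FPKM in the controls and 23.06, 23.05 and 23.08 FPKM after knockdown, and the knockdown libraries lay inside the control range (-0.0058, SE 0.047, adjusted p = 0.925). The PLK1 change was 0.15 under a common sum and passed there (adjusted p = 0.0250).

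Checkpoint and APC/C genes had 4 of 7 members higher and none lower (median 0.15). The counts were 5 and 0 under a common sum and 4 and 1 with the length trend removed. BUB3, which brings BUB1 and BUBR1 to kinetochores, rose from 28.1, 26.7 and 25.4 FPKM to 32.3, 32.8 and 31.5 FPKM, without overlap (0.26, SE 0.050, adjusted p = 0.00152). BUB1B, which encodes BUBR1, rose from 15.1, 13.9 and 14.2 FPKM to 15.5, 18.8 and 17.1 FPKM (0.23, SE 0.070, adjusted p = 0.0159), and TTK, the kinase that starts checkpoint signalling, from 20.9, 19.9 and 19.1 FPKM to 22.0, 23.7 and 24.0 FPKM (0.21, SE 0.054, adjusted p = 0.00738). For BUB1B the lowest knockdown value was only just above the highest control value, and its call was lost without control replicate 2 or 3 (adjusted p = 0.0600 and 0.0533). CDC20, the APC/C activator, rose by 0.15 (adjusted p = 0.0182), a call lost without control replicate 2 or 3 or knockdown replicate 3 (adjusted p 0.0532 to 0.0825). The kinase BUB1 changed by 0.11 (adjusted p = 0.0767) and MAD2L1, the inhibitor that binds CDC20, by -0.14 (adjusted p = 0.0723), and neither passed. BUB1 passed as higher under a common sum (0.27, adjusted p = 0.00239). MAD2L1 passed as lower without knockdown replicate 2 (-0.18, adjusted p = 0.0201) and with the length trend removed (-0.18, adjusted p = 0.0254). UBE2C, the enzyme that charges APC/C with ubiquitin, was at 174, 183.5 and 178 FPKM in the controls and at 181, 142 and 176 FPKM after knockdown, and only knockdown replicate 2 lay outside the control range (-0.11, adjusted p = 0.268).

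Of 6 kinetochore and centromere genes 3 were higher and none lower (median 0.06), 3 and 0 under a common sum and 2 and 0 with the length trend removed. CENPE, a kinesin motor that moves chromosomes to the spindle equator, rose from 5.47, 5.30 and 5.47 FPKM to 7.96, 8.70 and 7.56 FPKM, with no overlap (0.50, SE 0.065, adjusted p = 1.38e-04). NDC80, which grips microtubules at the kinetochore, rose from 16.6, 18.7 and 15.8 FPKM to 21.0, 21.0 and 20.7 FPKM (0.29, SE 0.062, adjusted p = 0.00298). NUF2, its direct partner, was at 29.9, 30.0 and 28.9 FPKM in the controls and 27.5, 28.5 and 29.7 FPKM after knockdown, which overlap (-0.05, SE 0.047, adjusted p = 0.385). The other pair of subunits of this complex, SPC24 and SPC25, named here after their values were seen, fell from 10.3 ± 0.506 to 7.58 ± 1.14 FPKM (-0.41, adjusted p = 0.00306) and from 12.8 ± 0.945 to 7.95 ± 0.794 FPKM (-0.63, adjusted p = 9.30e-05). CENPF, a large protein of the outer kinetochore, was at 17.1, 17.04 and 16.9 FPKM in the controls and 18.5, 20.3 and 18.0 FPKM after knockdown (0.15, SE 0.055, adjusted p = 0.0439). CENPF did not pass without any 1 of the control libraries or knockdown replicate 1 or 2 (adjusted p 0.0572 to 0.119), nor with a replicate block (adjusted p = 0.0584), nor with the length trend removed (-0.016, adjusted p = 0.784).

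CENPA, the histone variant that marks the centromere, was at 16.2 ± 0.958 FPKM in the controls and 16.0 ± 1.30 FPKM after knockdown (-0.019, adjusted p = 0.831). BIRC5, which encodes survivin of the chromosomal passenger complex, was at 28.5 ± 2.14 and 26.5 ± 0.753 FPKM (-0.10, adjusted p = 0.162). AURKB is the kinase of that complex, and its other subunits, named after their values were seen, were INCENP at 18.1 ± 0.870 and 15.6 ± 2.64 FPKM (-0.22, adjusted p = 0.0754) and CDCA8 at 28.0 ± 0.979 and 28.0 ± 0.817 FPKM (-0.0021, adjusted p = 0.973). Of the 4 subunits AURKB was thus the one that passed. INCENP also passed as lower without knockdown replicate 2 (-0.34, adjusted p = 3.16e-04) and with a replicate block (-0.22, adjusted p = 0.0269).

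Kinesins went both ways, with 5 of 11 members higher, 3 lower and 3 not past the test (median 0.04). Higher and lower members numbered 7 and 3 under a common sum and 5 and 3 with the length trend removed. KIF20A, which brings the passenger complex to the central spindle, fell from 31.97, 32.3 and 31.5 FPKM to 23.2, 22.8 and 24.2 FPKM (-0.43, SE 0.045, adjusted p = 3.66e-05). KIF22, which pushes chromosome arms away from the poles, fell from 33.2, 32.3 and 32.3 FPKM to 24.5, 22.5 and 25.3 FPKM (-0.42, SE 0.052, adjusted p = 1.03e-04). KIFC1, the motor that walks to the minus end and bundles poles, fell from 37.6 ± 0.484 to 28.2 ± 0.763 FPKM (-0.40, adjusted p = 4.81e-05). In these 3 genes the knockdown values were tight and far below the controls. KIF14, which acts with citron kinase in cytokinesis, rose from 6.61, 7.03 and 7.29 FPKM to 9.17, 11.0 and 8.60 FPKM, with knockdown replicate 2 the highest (0.40, SE 0.084, adjusted p = 0.00230). KIF11, the motor that pushes spindle poles apart, rose by 0.32 (adjusted p = 6.13e-04), KIF20B, a kinesin of cytokinesis, by 0.25 (adjusted p = 0.0135), KIF4A, which limits microtubule growth in the midzone, by 0.22 (adjusted p = 0.00634) and KIF18A, which damps chromosome swings, by 0.20 (adjusted p = 0.0159). The KIF20B call was lost without control replicate 2 (adjusted p = 0.0527) and that of KIF18A without control replicate 3 (adjusted p = 0.0765). KIF2C, the microtubule-depolymerising kinesin of centromeres, was at 28.6 ± 0.665 FPKM in the controls and 28.5 ± 0.930 FPKM after knockdown. KIF23, the motor of centralspindlin, was at 22.6 ± 0.441 and 22.8 ± 1.05 FPKM, and KIF15, a spindle motor that can stand in for KIF11, at 5.78 ± 0.348 and 5.99 ± 0.874 FPKM (adjusted p = 0.944, 0.869 and 0.744). Under a common sum KIF2C and KIF23 passed as higher (0.16 and 0.17, adjusted p = 0.0325 and 0.0312).

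Among spindle assembly and mitotic chromosome proteins 3 of 5 were higher and none lower (median 0.19), 3 and 0 under a common sum and 3 and 1 with the length trend removed. HMMR (ENSG00000072571, chr5:163460203-163491945 in GENCODE v29 on GRCh38), a microtubule-binding protein that places TPX2 on the spindle and is also known as a hyaluronan receptor, rose from 20.9, 21.0 and 20.2 FPKM to 35.0, 35.2 and 33.3 FPKM (0.71, SE 0.046, adjusted p = 1.83e-06). The spread within each group was a small part of the gap. TOP2A, the topoisomerase that untangles sister chromatids, rose from 52.6, 50.9 and 51.8 FPKM to 69.4, 87.4 and 73.2 FPKM (0.55, SE 0.075, adjusted p = 1.75e-04), highest in knockdown replicate 2, and was 0.45 without it. TPX2, which activates AURKA and nucleates microtubules, rose from 116, 125 and 120 FPKM to 139, 138 and 134 FPKM (0.19, SE 0.046, adjusted p = 0.00616). MKI67, which coats mitotic chromosomes and is the Ki-67 antigen of pathology, was at 33.2, 33.0 and 32.6 FPKM in the controls and 29.8, 32.1 and 30.3 FPKM after knockdown. Its knockdown values were all below the controls, by little in replicate 2, and the difference did not pass (-0.10, SE 0.046, adjusted p = 0.0927). MKI67 passed as lower without that library (-0.13, adjusted p = 0.0105) and with the length trend removed (-0.27, adjusted p = 2.34e-04), and was at 0.06 under a common sum, so no direction is given. DLGAP5, a spindle protein regulated by AURKA, was at 31.0 ± 0.963 FPKM in the controls and 30.4 ± 1.86 FPKM after knockdown (-0.030, adjusted p = 0.659).

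Both cytokinesis genes that passed were higher, 2 of 3 analysed, with 3 higher under a common sum and 2 with the length trend removed. ANLN, the scaffold of the contractile ring, rose from 34.0, 35.7 and 33.0 FPKM to 46.9, 49.5 and 43.7 FPKM (0.44, SE 0.055, adjusted p = 1.17e-04). ECT2, the exchange factor that activates RHOA at the cell equator, rose from 39.6, 38.7 and 38.1 FPKM to 50.9, 55.5 and 51.1 FPKM (0.43, SE 0.048, adjusted p = 6.01e-05). RACGAP1, which binds and activates ECT2 at the central spindle, was at 30.6 ± 1.23 FPKM in the controls and 32.8 ± 2.88 FPKM after knockdown and did not pass (0.09, adjusted p = 0.233), although it did under a common sum (0.26, adjusted p = 0.0114).

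The transcription factors that drive these genes differed from each other. MYBL2 (ENSG00000101057, chr20:43667019-43716496 in GENCODE v29 on GRCh38), which joins MuvB in late G1 and S phase, fell from 82.9, 85.5 and 83.2 FPKM to 58.5, 50.7 and 56.6 FPKM, with no overlap (-0.60, SE 0.056, adjusted p = 1.87e-05). FOXM1, which joins the same complex in G2, was at 23.7, 26.1 and 25.2 FPKM in the controls and 26.1, 26.8 and 28.5 FPKM after knockdown. The groups of FOXM1 just failed to overlap and the difference did not pass (0.12, SE 0.054, adjusted p = 0.0893), while it passed as higher under a common sum (0.28, adjusted p = 0.00135) and with quantile normalization (0.17, adjusted p = 0.0214).

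**Figure D3:**
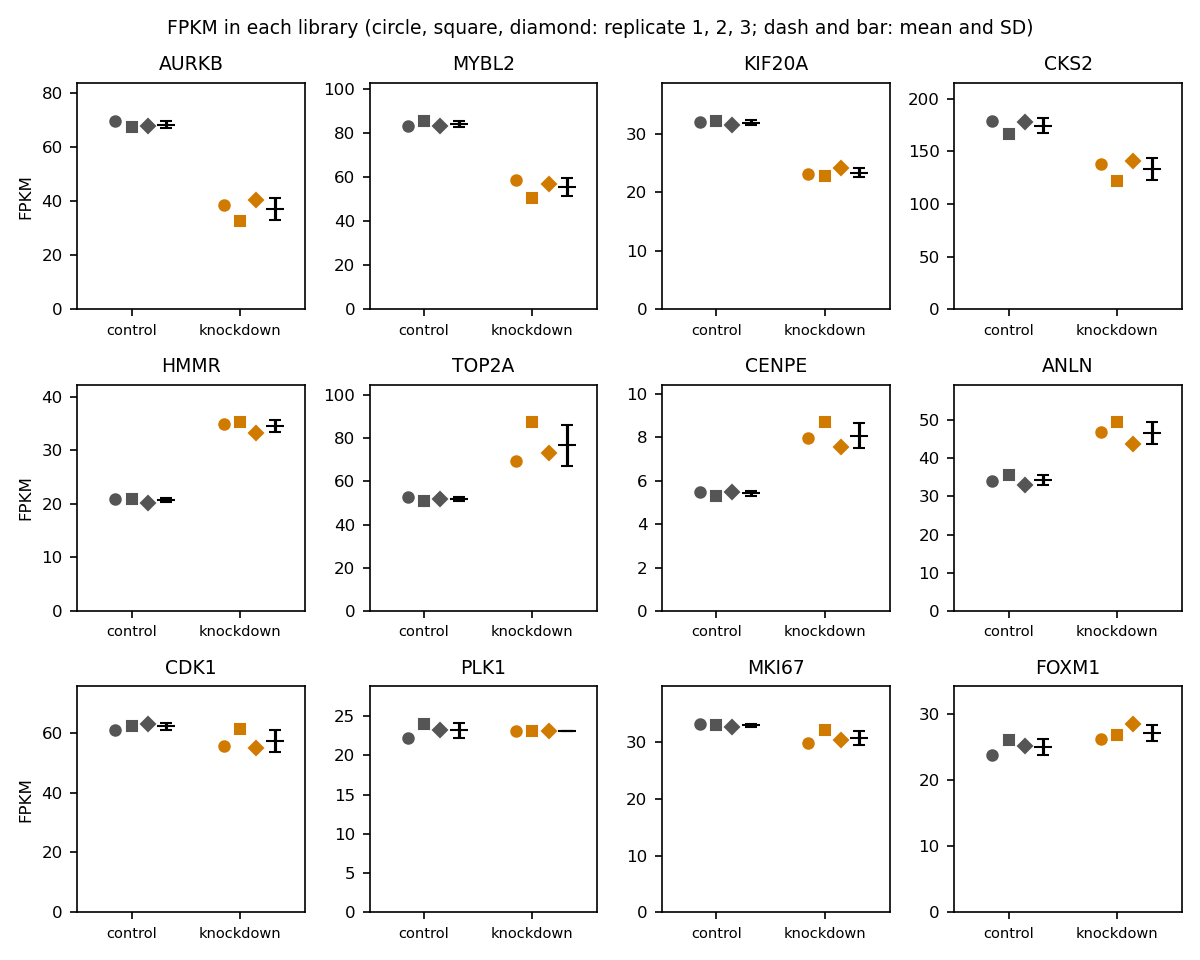
FPKM (y axis, from 0) of 12 members in each of 3 control and 3 knockdown libraries; symbols mark the replicate number, and the dash and bar the mean and SD. The top row holds 4 members that fell, such as AURKB from 68.4 to 37.3 FPKM, the middle row 4 that rose, such as HMMR from 20.7 to 34.5 FPKM, and the bottom row 4 that did not pass.

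Since rescaling a library cancels in the ratio of 2 genes within it, 8 pairs of related members were compared as ratios of FPKM, a level per length. The trend of change over gene length, described below, does not cancel, and its part in the ratios was not tested. The pairs were chosen after the values were seen. Their direction, their lack of overlap and the p-values given below follow at least in part from that choice, so the ratios are a description and test nothing. CCNB1 was at 1.98, 1.91 and 1.92 times the level of CCNB2 in the control libraries and at 2.42, 2.94 and 2.75 times in the knockdown libraries. AURKA was below AURKB in all 3 control libraries, at ratios of 0.742, 0.760 and 0.778, and above it in all 3 knockdown libraries, at 1.33, 1.53 and 1.17. The order of the Aurora kinases was thus exchanged. KIF11 and KIFC1, motors of opposite direction on the spindle, exchanged order too, from ratios of 0.766, 0.754 and 0.802 to 1.32, 1.39 and 1.18. TOP2A over MKI67 went from 1.58, 1.54 and 1.59 to 2.33, 2.72 and 2.42. Within the NDC80 complex, NDC80 over NUF2 went from 0.555, 0.624 and 0.546 to 0.766, 0.737 and 0.699. The mean ratio was 1.26 times the control mean for ECT2 over RACGAP1, 1.47 times for HMMR over TPX2 and 1.66 times for KIF20B over KIF20A. In all 8 pairs control and knockdown libraries did not overlap, and the two-sided exact permutation p was 0.1 for each, which is the lowest possible with 3 against 3 (adjusted p = 0.1 over the 8 pairs). Of all single genes tested, 65.1% did not overlap either.

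**Figure D4:**
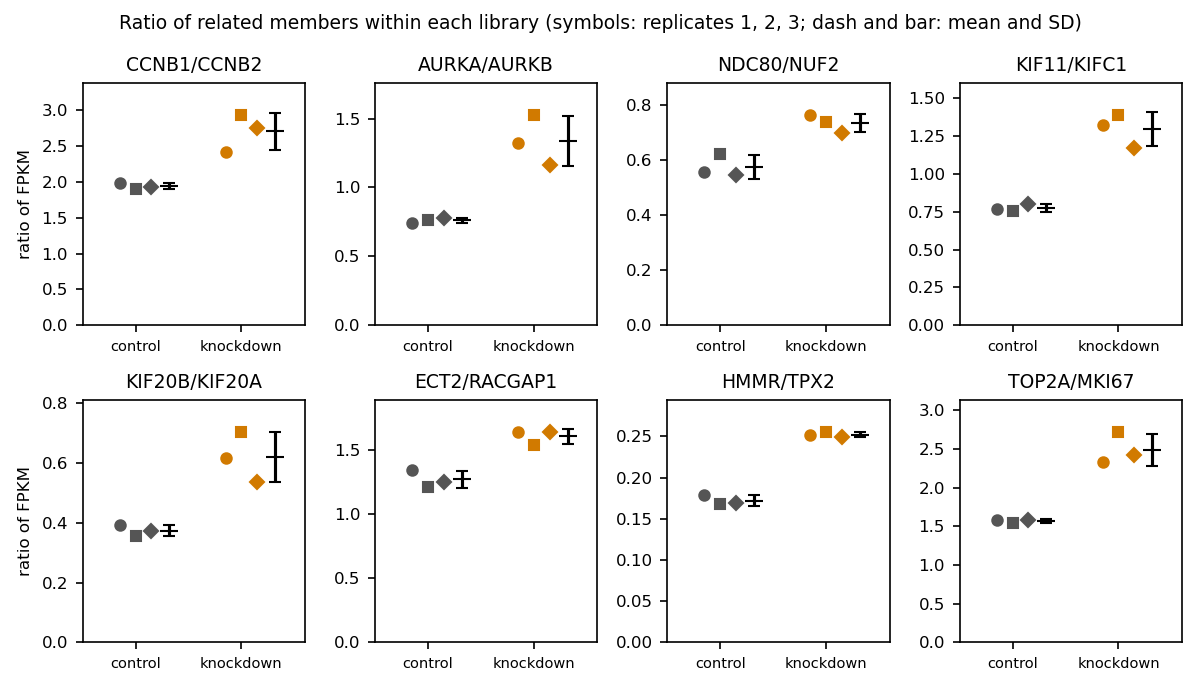
Ratio of the FPKM of 2 related members (y axis, from 0) within each of 3 control and 3 knockdown libraries; symbols mark the replicate number, and the dash and bar the mean and SD. AURKA over AURKB and KIF11 over KIFC1 go from below 1 in every control library to above 1 in every knockdown library.

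Longer members tended to have higher changes, with exceptions such as CCNB1 and CDC20, which are short and rose, and a tendency in the same direction was seen over all genes. The median change of all genes went from -0.18 in the shortest decile by merged exon length, around 1635 bases, to 0.18 in the longest, around 12636 bases. Among the 22 shorter members, of 613 to 4312 bases, 6 were higher and 7 lower (median -0.06). Among the 22 longer members, of 4314 to 12807 bases, 13 were higher and 1 lower (median 0.20). Across the members, the Spearman correlation of length and change was 0.49 (n = 44), and across all genes 0.30 (n = 11214), as a description over genes that share the same 6 libraries. With the trend over length removed from each library, that correlation was 0.19 across members, 18 members were higher and 9 lower, and 18 and 7 of these, in that order, were those called before. The shorter members then had 6 higher and 6 lower (median 0.03) and the longer members 12 and 3 (median 0.17), so part of the contrast remained. AURKB was still at -0.71, MYBL2 at -0.48, KIF20A at -0.39, HMMR at 0.75, TOP2A at 0.50, ANLN at 0.40, ECT2 at 0.40 and CENPE at 0.37, and all passed. CKS2, the shortest member at 613 bases, went from -0.39 to -0.12 and lost the call (adjusted p = 0.0537), while MKI67, the longest at 12807 bases, passed as lower.

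**Figure D5:**
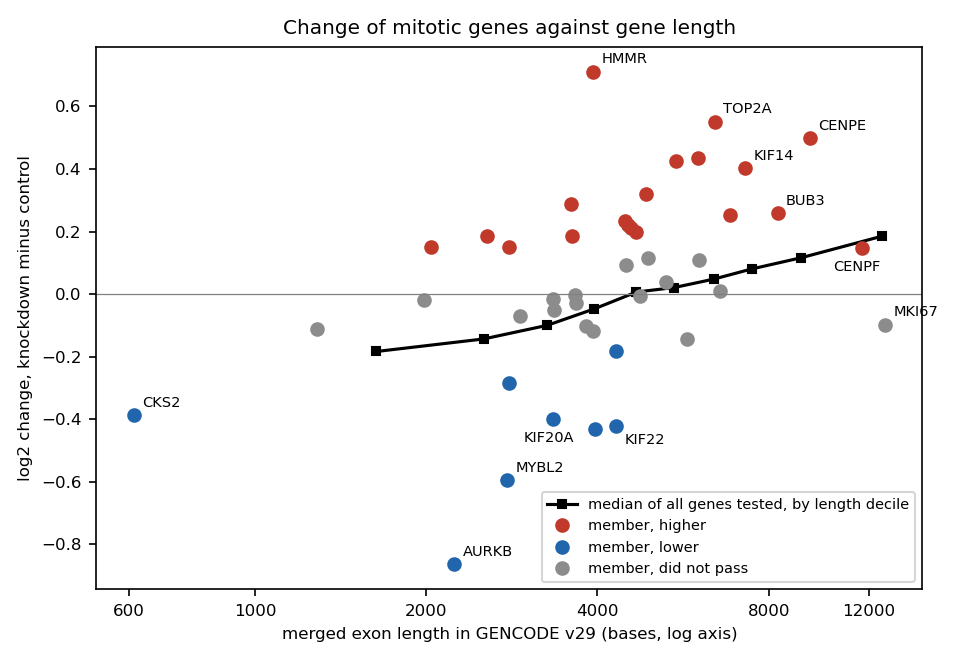
Log2 change (y axis) of the 44 members against merged exon length in bases (x axis, log scale), with the median of all genes tested per length decile as squares joined by a line. HMMR, TOP2A and CENPE lie well above the line and AURKB, MYBL2 and KIF22 well below it, while CENPF lies near it.

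Other genes of mitosis, 177 in 7 lists, went both ways: of 173 tested, 58 were higher and 48 lower (median 0.04), and 91 and 26 under a common sum. Of all 11214 genes tested, 29.5% were higher and 27.8% lower (median 0.01). Under a common sum 4864 of all genes were higher and 1838 lower, and with the length trend removed 3171 and 3196. Whether these genes or any single list differ from this background was not tested. The balance of higher and lower within a list depended on scaling and length, so both are given. Other kinetochore, centromere and passenger genes had 9 of 32 higher and 10 lower, 16 and 7 under a common sum and 15 and 11 with the length trend removed. Their largest fall, which was also the largest in size among all members and listed genes, was that of CENPW, a histone-fold protein of the inner kinetochore, from 78.3 ± 5.42 to 28.1 ± 1.42 FPKM (-1.44, adjusted p = 1.26e-07), and their largest rise that of KNL1, the scaffold that recruits BUB1, from 4.11 ± 0.263 to 6.57 ± 1.12 FPKM (0.56, adjusted p = 9.00e-04). Other checkpoint, APC/C and separase genes had 5 of 24 higher and 7 lower, 13 and 3 under a common sum and 7 and 6 with the length trend removed. The APC/C subunit CDC27 rose by 0.46, and PTTG1, the securin that CDC20 targets, fell from 74.2 ± 1.35 to 46.5 ± 5.22 FPKM (-0.67). Condensin, cohesin and their regulators had 10 of 22 higher and 5 lower, 14 and 1 under a common sum and 9 and 4 with the length trend removed. In that list STAG1, a cohesin subunit, rose from 2.62 ± 0.232 to 6.69 ± 0.749 FPKM (1.09), and NCAPH2, a condensin subunit, fell by 0.54.

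Of 23 other mitotic kinases, phosphatases and regulators 7 were higher and 8 lower, 12 and 5 under a common sum and 5 and 6 with the length trend removed. Of the related kinases NEK7 and NEK6, the first rose by 0.74 and the other fell by 0.49. Spindle, centrosome and microtubule genes had 9 of 31 in each direction, but 15 higher and 5 lower under a common sum and 7 and 12 with the length trend removed. The largest rise was that of CLASP2, which stabilises microtubule ends (0.45), and the largest fall that of TUBG1, the gamma-tubulin that nucleates microtubules, from 15.4 ± 1.32 to 8.23 ± 0.752 FPKM (-0.83). Other cytokinesis genes had 8 of 20 in each direction, but 9 higher and 5 lower under a common sum and 5 and 9 with the length trend removed, KIF13A rising by 0.62 and CHMP2A, a subunit of the membrane-cutting ESCRT machinery, falling by 0.82. In the list of MuvB, DREAM and E2F genes 10 of 21 were higher and 1 lower (median 0.09), 12 and 0 under a common sum and 8 and 3 with the length trend removed. E2F7, a repressor of the E2F family, rose from 3.37 ± 0.430 to 6.51 ± 0.862 FPKM (0.78, adjusted p = 1.17e-04), and E2F5, a partner of the pocket proteins, was the gene that fell (-0.26, adjusted p = 0.00845), a call lost under a common sum (-0.13, adjusted p = 0.159).

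Across the 15 alternative settings 18 of the 27 calls held in each, 13 of them higher and 5 lower. The higher genes were CCNB1, BUB3, TTK, NDC80, CENPE, KIF4A, KIF11, KIF14, TPX2, HMMR, TOP2A, ANLN and ECT2. The lower genes were AURKB, KIF20A, KIF22, KIFC1 and MYBL2. The change of AURKB ranged from -0.93 to -0.70 and that of HMMR from 0.69 to 0.87. Exons of 18 members overlap those of another gene in GENCODE v29, and since it is not given whether counting used strand, reads could be shared there. The overlap was largest for FOXM1, 15.9% of its exon bases with ITFG2 on the opposite strand, and was 13.0% for KIF22, 12.7% for KIFC1, 11.6% for PLK1 and 10.2% for BUB1B. KIF4A has an intronless copy, KIF4B, and 9 members, AURKA, BUB1, BUB3, CCNB2, CDC20, DLGAP5, MKI67, RACGAP1 and UBE2C, have pseudogenes named after them, so the division of reads is uncertain for these 10 genes and for the ratios that hold them.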

How the data were processed

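Per the labels' protocols, TRIzol was used to extract RNA from the HaCaT cultures and an Illumina TruSeq kit to make the libraries. The authors deposited FPKM values per gene and library. HISAT2 2.2.1 and GRCh38 are named, per the submitters' processing notes, while for the counting program, annotation and strand setting the entry is: not given in the sources used here. Within a gene the values were whole multiples of 1 step after scaling by depth, and whole reads were recovered for all 12829 genes within 0.004 reads. Exon lengths came from GENCODE v29, in which 12818 genes were found; 85.3% had a length within 10% of that implied by the table.

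Genes averaging 0.5 FPKM or more, 11214 in all, entered a comparison of knockdown with control on log2(FPKM + 1) in limma (version 3.58.1, R version 4.3.3), with group as the only factor, a mean-variance trend, two-sided tests and Benjamini-Hochberg adjustment over all genes tested, at 0.05. The scale understates changes of low genes. IQGAP2, as the knockdown check, was put into each fit although it averaged less than 0.5 FPKM; the remaining genes under that level entered no test except the unfiltered alternative. Groups came from the sample labels. The members, functions and lists were chosen with earlier results of these data known. Values in every library were given for the 3 members per function with the largest change past the threshold and, whatever their p, for CDK1, CCNB1, PLK1, AURKB, MKI67, TOP2A, FOXM1, MYBL2 and BUB3; AURKA, NUF2 and UBE2C were added after their values were seen. Of the other lists the largest rise and fall were named. The fit was tested on simulated reads with 1 scatter set for all genes. It called 8.2% of genes changed 1.15-fold, 44% of those changed 1.25-fold and 98% of those changed 1.5-fold. Members that did not pass changed by at most 0.14 in size, so they are not shown to be unchanged.

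Alternatives were pseudocounts of 0.1 and 0.5, no filter, a mean of at least 5 FPKM, a common FPKM sum, quantile normalization, removal of each library's lowess trend over length, limma voom on recovered reads, a replicate block, and leaving out each library.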

Additional observations from a re-analysis of the deposited data

How the results depend on the processing

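Over all genes 6434 were called, and the count stayed within 1.5 times of this in each of the 15 alternatives. So did the members called higher (14 to 25) and lower (6 to 11). In 5 of 7 functions more members were higher than lower. This count was 6 under a common sum and 5 in the other alternatives. With 7 functions it could not rise by 1.5 times, so that limit could only show a fall. The median change of the members was 0.22 under a common sum, and 0.011 to 0.098 as single libraries were left out, lowest without knockdown replicate 2. The Spearman correlation of length and change was 0.19 with the length trend removed. CHR letters in the 100 bases before the start were in 50% of member promoters, against 6.14% of all genes, and TTTGAA alone in 73.7%. IQGAP2 changed by -0.23 to -0.22 as single libraries were left out, but its size depended on the scale: it was -0.41 with a pseudocount of 0.5, -1.26 with 0.1, -0.32 with the length trend removed and -2.86 with voom on recovered reads (limma adjusted p = 4.70e-05), against -0.22. No pairing by replicate number was visible in the values. Deviations of libraries with the same number correlated at -0.067, -0.038 and 0.019, and no control library correlated best with the knockdown library of its own number. These correlations cannot show whether the libraries were handled in pairs. With a replicate block 18 members were higher and 8 lower, and 6191 genes were called in all; the CENPF call was lost, at an adjusted p of 0.0584.

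The sign was not stable for the following members that did not pass, for CDCA8, and for CENPF, which passed. Under a common sum the change turned positive for CDK1 (0.047), CDC25C (0.13), PLK1 (0.15), AURKA (0.092), MAD2L1 (0.0101), UBE2C (0.055), NUF2 (0.11), CENPA (0.14), BIRC5 (0.059), KIF2C (0.16), DLGAP5 (0.13), MKI67 (0.064) and CDCA8 (0.16); PLK1, KIF2C and CDCA8 passed there. With the length trend removed the sign turned for CDC25C (0.065), AURKA (0.035), UBE2C (0.10), NUF2 (0.0305), CENPA (0.15), CENPF (-0.016), KIF2C (0.059), KIF23 (-0.044), DLGAP5 (0.032) and CDCA8 (0.13). With quantile normalization it turned for PLK1 (0.023), NUF2 (0.0006), KIF2C (0.048), KIF15 (-0.0027), DLGAP5 (0.018) and CDCA8 (0.058). As single libraries were left out, the change crossed 0 in CDC25C (-0.053 to 0.0047), PLK1 (-0.034 to 0.019), CENPA (-0.066 to 0.046), KIF2C (-0.030 to 0.012), KIF15 (-0.044 to 0.14), KIF23 (-0.022 to 0.041), DLGAP5 (-0.070 to 0.016) and CDCA8 (-0.023 to 0.024). The cause was not tested. Each member had at least 372 reads in every library.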
